A study of Homo sapiens with 9 samples.

Results

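Long noncoding RNAs (lncRNAs) are transcripts that are processed like messenger RNA but are not translated into a known protein, and 10 of them that are either abundant in most cells or studied in prostate cancer were followed here: MALAT1, NEAT1, PCAT1, PCA3, SCHLAP1, H19, PVT1, SNHG1, GAS5 and HOTAIR. They were chosen by symbol, through the Ensembl identifier of each gene, from the 60675 genes in the count files. All 10 passed the filter on low counts, which kept 19278 genes, of which 3041 are annotated as lncRNA. PCA3, SCHLAP1 and H19 were close to the limit of 0.375 CPM (counts in each 1e6 counts of a library) that a gene had to reach in at least 3 libraries. SCHLAP1 reached it in the guide 2 libraries and in no other, so its difference from the other groups was fixed in part by passing the filter, and PCA3 reached it in 2 shScramble libraries, 1 guide 2 library and 0 libraries labelled guide 1, so the same holds for its difference from the latter. HOTAIR reached it in 3 shScramble libraries, 0 guide 2 libraries and 3 libraries labelled guide 1, so its differences from guide 2 carry the same limit.

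RNA sequencing was carried out on LNCaP:C4-2 cells, a castration-resistant prostate cancer cell line derived from LNCaP, in 3 groups of 3 libraries. All cells carried a doxycycline-inducible short hairpin RNA (shRNA) delivered by lentivirus and selected with 1 μg/ml puromycin for 3 weeks: a non-targeting hairpin (shScramble), or either of 2 hairpins against METTL3, the enzyme that methylates adenosine in RNA to N6-methyladenosine (m6A). Cells were grown in charcoal-stripped serum, the protocol gives 1 μg/ml doxycycline for 6 days, and the titles of all 9 samples name a vehicle. Nothing states that the 3 libraries of a group came from separate cultures, so p-values measure the spread between these libraries, which may be technical.

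The hairpin targets are shown because METTL3 was lowered with guide 2 and not in the libraries labelled guide 1. Capitals mark the bases that pair with bases 2 to 8, the seed, of the strand complementary to the target.
shMETTL3 guide 1: cgtcagtatcttgGGCAAGTt
shMETTL3 guide 2: gctgcacttcagaCGAATTAt
Each 21-base target was found in transcripts of 1 gene, METTL3, and in none of the 527 annotated transcripts of the 10 lncRNAs. METTL3 lay between 29.8 and 33.0 CPM in shScramble and between 15.8 and 16.6 CPM with guide 2, a log2 fold change of -0.95 (SE 0.0687, adjusted p = 2.97e-12, edgeR's quasi-likelihood test). In the libraries labelled guide 1 it lay between 29.4 and 30.1 CPM, a log2 fold change of -0.08 (SE 0.0633, adjusted p = 0.251, the same test). That group is therefore named by its label, and no direction drawn from it is a direction of METTL3 knockdown. The seed match of guide 1, GGCAAGT, occurred 4 times in the exons of MALAT1, 3 times in those of NEAT1 and 1 time in H19, and that of guide 2, CGAATTA, 1 time in MALAT1, on the transcribed strand. At least 1 match was held by 21.2% of all tested genes for guide 1 and by 3.82% for guide 2. A match of this length is a description and not a site.

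The libraries held between 21899501 and 30897639 counts. Annotated lncRNA genes took between 1.59% and 1.64% of the counts in shScramble, between 1.16% and 1.21% with guide 2 and between 1.67% and 1.75% in the libraries labelled guide 1. Genes with at least 1 count numbered 28459 to 29586, 24884 to 26505 and 29193 to 29628 in these groups. Summed over 12 luminal prostate markers, levels were 2814 to 2844 CPM, 3205 to 3345 CPM and 1461 to 1510 CPM, and all 12 were tested. Of these markers 6 fell in the libraries labelled guide 1, with FOLH1, prostate-specific membrane antigen (chosen after its values were seen), at -1.15 on the log2 scale. Of 11 stromal, leukocyte and endothelial markers 2 passed the filter, and of 4 basal markers 0. In bulk RNA, fewer cells of a type and less RNA per cell cannot be told apart.

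The lncRNAs differed widely in level. Divided by the exon length in the files, the shScramble levels were 114 CPM per kb for GAS5, 54.0 for MALAT1, 31.7 for SNHG1, 22.5 for NEAT1, 4.29 for PVT1, 0.833 for PCAT1, 0.405 for HOTAIR, 0.202 for H19, 0.103 for PCA3 and 0.0938 for SCHLAP1. PCA3 and SCHLAP1 were the only neighbours in this order whose libraries overlapped. With guide 2, MALAT1 (16.2 CPM per kb) overlapped SNHG1 (12.5 CPM per kb), and HOTAIR had the lowest mean, 0.0600 CPM per kb, with libraries that overlapped those of PCA3. Among the libraries labelled guide 1, SNHG1 ranked above MALAT1, at 79.6 CPM per kb, and HOTAIR above PVT1, at 3.70 CPM per kb, and SCHLAP1 overlapped PCA3. Together the 10 genes took between 0.157% and 0.165% of all counts in shScramble, between 0.0479% and 0.0573% with guide 2 and between 0.140% and 0.153% in the libraries labelled guide 1.

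Calls required an adjusted p (Benjamini-Hochberg) below 0.05 together with a change of 1.5-fold or more, named the fold limit here. With guide 2 against shScramble, 7 of the 10 lncRNAs were called, 2 raised (PCAT1, SCHLAP1) and 5 lowered (MALAT1, NEAT1, SNHG1, GAS5, HOTAIR). SCHLAP1 passed the filter through the guide 2 libraries alone, so its call adds no support to this count. HOTAIR reached the filter limit in 0 guide 2 libraries, so its call adds none either. Of all tested genes 29.3% were called in this comparison, 8.85% raised and 20.4% lowered, and of the tested lncRNA genes 4.54% were raised and 34.3% lowered. The median log2 fold change of the 10 was -0.65, against -0.46 over the tested lncRNA genes and -0.04 over all tested genes. Against shScramble, 7 of the 10 were called in the libraries labelled guide 1, 3 raised (SNHG1, GAS5, HOTAIR) and 4 lowered (MALAT1, NEAT1, PCAT1, PCA3). PCA3 reached the filter limit in 0 of the libraries labelled guide 1, so its call adds no support to this count. The shares of all tested genes were 37.7% called, 21.2% raised and 16.5% lowered, and 15.2% and 30% of the tested lncRNA genes were raised and lowered. Both comparisons share the 3 shScramble libraries. Guide 2 against the libraries labelled guide 1, the direct comparison of these groups, called 9 of the 10, all but PVT1, with 4 higher and 5 lower with guide 2. The 4 include SCHLAP1 and PCA3, which reached the filter limit in 0 libraries labelled guide 1, and the 5 include HOTAIR, which reached it in 0 guide 2 libraries. Of all tested genes 47.3% were called there, 19.1% higher and 28.2% lower.

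**Figure D1:**
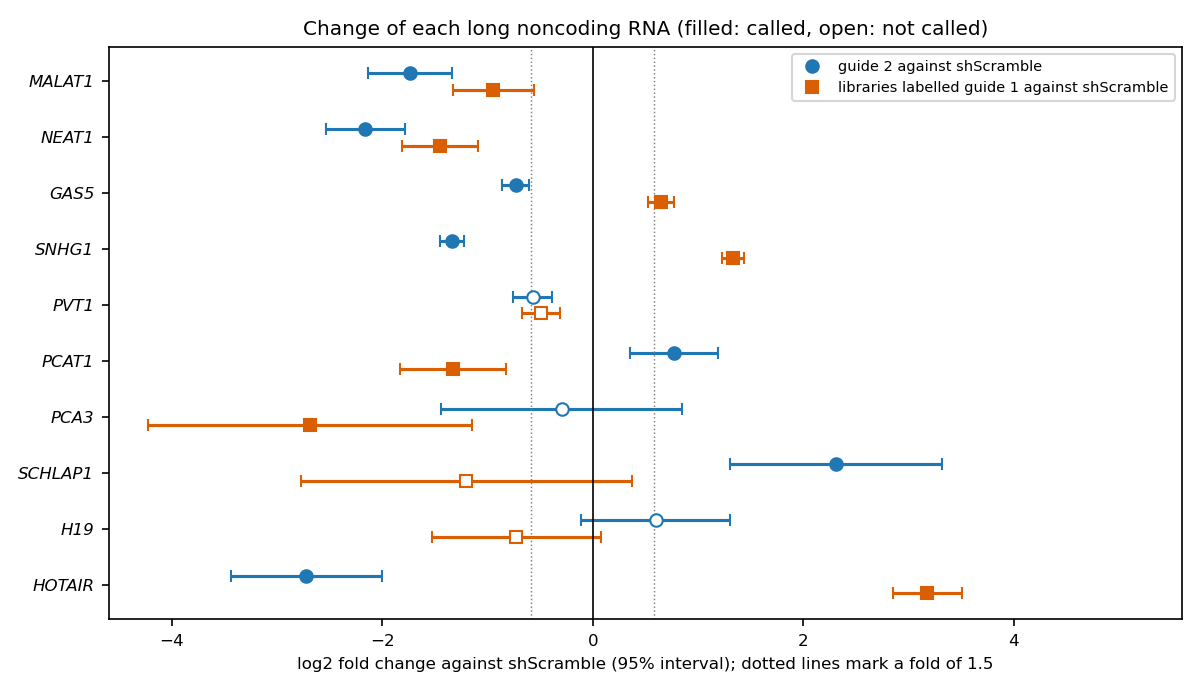
Log2 fold change against shScramble (horizontal axis, with 95% interval) of the 10 lncRNAs with guide 2 (circles) and in the libraries labelled guide 1 (squares), filled where called. MALAT1 and NEAT1 lie left of 0 for both, and GAS5, SNHG1, PCAT1 and HOTAIR are called on opposite sides of 0.

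MALAT1 and NEAT1 are abundant transcripts that stay in the nucleus. MALAT1 gathers at nuclear speckles, which store splicing factors, and NEAT1 is the scaffold of paraspeckles. They are neighbours on chromosome 11 of GRCh38, with NEAT1 (ENSG00000245532) at positions 65422774 to 65445540 and MALAT1 (ENSG00000251562) at 65497762 to 65506516, both on the plus strand and each counted as 1 unspliced exon.

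MALAT1 was counted 14175, 15584 and 10769 times in shScramble, 3679, 4005 and 2345 times with guide 2 and 7189, 7315 and 6611 times in the libraries labelled guide 1. With TMM scaling, which corrects library size for composition, these were 472.7 ± 15.4 CPM, 142 ± 30.7 CPM and 245 ± 21.9 CPM (SD, n = 3). The 3 groups did not overlap. The log2 fold change was -1.74 with guide 2 (SE 0.165, adjusted p = 1e-04, edgeR's quasi-likelihood test) and -0.95 in the libraries labelled guide 1 (SE 0.159, adjusted p = 0.00164, the same test).

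NEAT1 was counted 15722, 15997 and 12111 times in shScramble, 3022, 3175 and 1908 times with guide 2 and 5705, 5258 and 5193 times in the libraries labelled guide 1. The levels were 513 ± 14.8 CPM, 115 ± 24.5 CPM and 188 ± 13.3 CPM (SD, n = 3), again without overlap. Its log2 fold change was -2.16 with guide 2 (SE 0.157, adjusted p = 2.08e-05, edgeR's quasi-likelihood test) and -1.45 in the libraries labelled guide 1 (SE 0.151, adjusted p = 0.000116, the same test). In the third guide 2 library both transcripts were lower than in the other 2, at 106 CPM for MALAT1 and 86.4 CPM for NEAT1. Between guide 2 and the libraries labelled guide 1 the log2 difference was -0.79 for MALAT1 (adjusted p = 0.00386) and -0.71 for NEAT1 (adjusted p = 0.00484), by the same test, and that of NEAT1 was -0.54 and no longer called without the third guide 2 library.

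The pair took between 6.32% and 6.42% of all lncRNA counts in shScramble, between 1.54% and 2.26% with guide 2 and between 2.41% and 2.69% in the libraries labelled guide 1. The mitochondrial share of all counts had the same order, 5.96% to 6.34%, 3.78% to 4.92% and 5.08% to 5.30%, with its lowest value in the third guide 2 library, and its part in the levels of the pair was not tested. Of the pair, NEAT1 had the larger log2 fold change in size in both groups. The ratio of MALAT1 to NEAT1 counts within a library was 0.889 to 0.974 in shScramble, 1.22 to 1.26 with guide 2 and 1.26 to 1.39 in the libraries labelled guide 1, with p = 0.1 for either group against shScramble in a two-sided exact permutation test, the smallest p that 3 libraries against 3 allow. On the opposite strand 2 genes cover 22.7% of the MALAT1 exon, and both had 0 counts in every library. Since the strand setting and the handling of overlaps are not stated, these counts cannot tell whether both genes were silent. MALAT1 reads on the shared bases may have been lost.

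FRMD8, LTBP3 and SLC25A45, which lie near MALAT1 and NEAT1, had log2 fold changes of 0.13, 0.06 and -0.30 with guide 2 and were not called. SLC25A45 fell in the libraries labelled guide 1 (-0.85), where FRMD8 was at -0.44 and LTBP3 at -0.54, neither called. Of 20 measured paraspeckle protein genes, 1 rose with guide 2 (HNRNPA1, an RNA-binding protein, 0.59) and 0 fell, and NONO and SFPQ, the core pair (chosen after their values were seen), were at 0.43 and 0.24 and not called. The corresponding counts in the libraries labelled guide 1 were 2 and 0, with NONO at 0.72. Over all tested genes 8.85% rose and 20.4% fell with guide 2, and 21.2% rose and 16.5% fell in the libraries labelled guide 1. Of 17 genes for MALAT1 processing and binding, 1 rose with guide 2 (POP1, a subunit of RNase P and RNase MRP, 0.59) and 1 fell (RPP21, a subunit of RNase P, -1.25). RNase P cuts the 3′ end of MALAT1. HNRNPA1 and POP1 were just above the fold limit, a log2 of 0.585. When only the 6 libraries compared were fitted, 0 of the 20 and 1 of the 17 were called with guide 2.

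Of 13 tested nuclear and chromatin lncRNAs, MALAT1 and NEAT1 included, 0 rose and 7 fell with guide 2, with a median log2 fold change of -0.80. Without the pair 0 rose and 5 of 11 fell, with a median of -0.47, beside a lowered share of 34.3% and a median of -0.46 over the tested lncRNA genes. Besides this pair the largest fall at 1 CPM or more was that of HOTAIRM1, a transcript of the HOXA cluster (-1.19). The other abundant ones moved less, with TUG1 at -0.29, OIP5-AS1 at -0.10 and NORAD at 0.25, none called (chosen after their values were seen). Of the 13, 4 rose in the libraries labelled guide 1, HOTAIRM1 among them (1.60), and 2, MALAT1 and NEAT1, fell. In that comparison 15.2% of the tested lncRNA genes rose and 30% fell, and 21.2% and 16.5% of all tested genes.

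**Figure D2:**
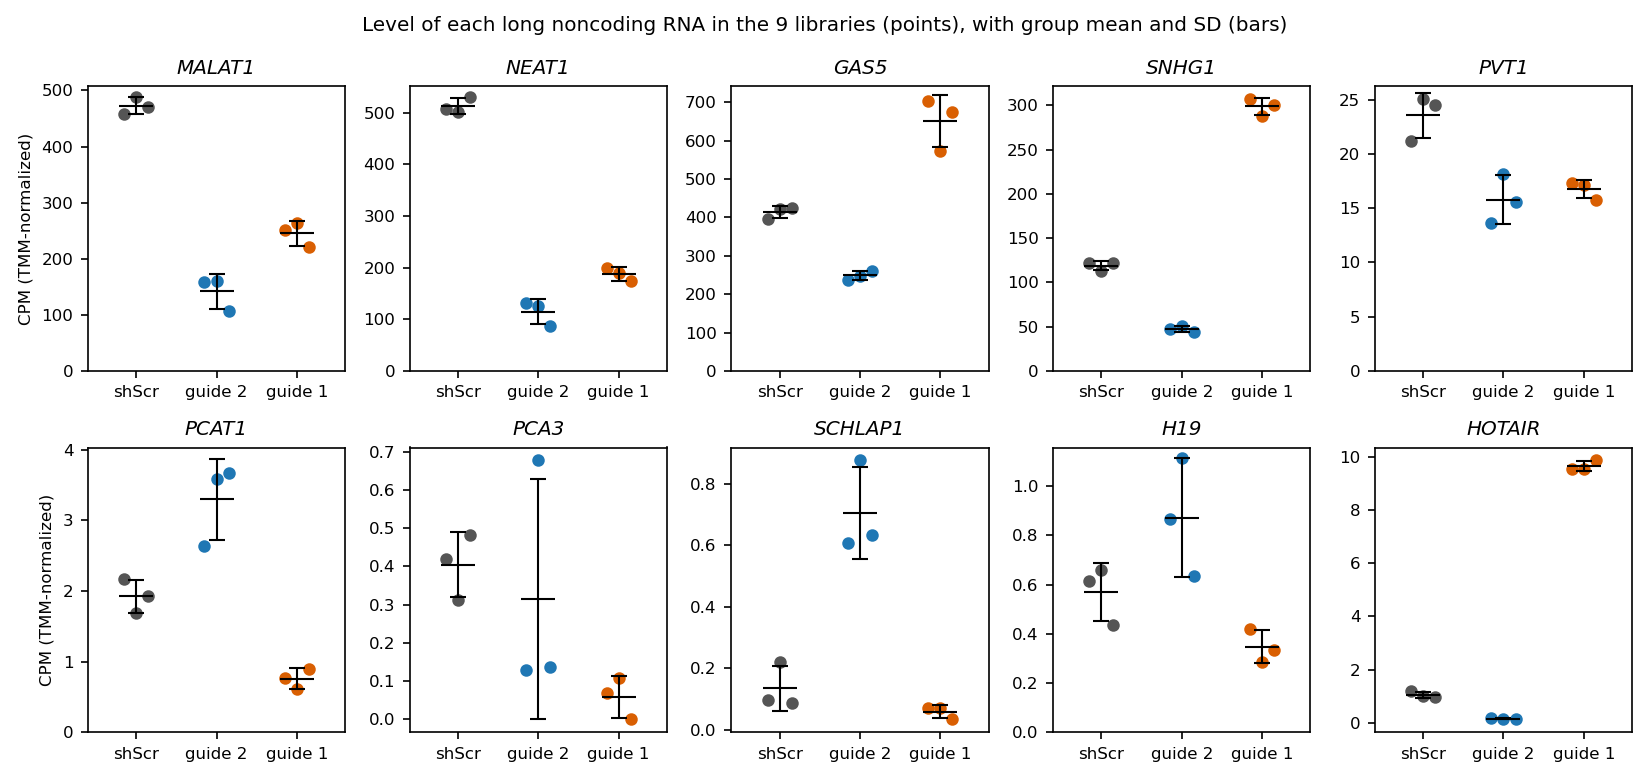
TMM-normalized CPM (vertical axis) of each lncRNA in the 9 libraries (points), with group mean and SD (bars). MALAT1 and NEAT1 are highest in shScramble, GAS5, SNHG1 and HOTAIR are highest in the libraries labelled guide 1, and PCAT1 and SCHLAP1 are highest with guide 2.

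GAS5 and SNHG1 are host genes of small nucleolar RNAs (snoRNAs), which are cut from their introns and guide the modification of ribosomal RNA. Their spliced transcripts are known to be degraded when translated, by nonsense-mediated decay, and many genes of this kind start, like ribosomal protein genes, with a C followed by a run of pyrimidines. GAS5 (ENSG00000234741) lies on chromosome 1 at 173863900 to 173868882 and SNHG1 (ENSG00000255717) on chromosome 11 at 62851988 to 62855914, both on the minus strand. The exons in the files cover 72.9% of the GAS5 span and 95.7% of the SNHG1 span, so reads of spliced and unspliced transcripts were counted together. Of 14 gene entries matched by symbol to snoRNAs of the pair, 12 had 0 counts in every library and 0 were tested. Some entries share a symbol, and whether each lies within the pair was not checked.

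The starts of the canonical transcripts of the pair and of ZFAS1, another snoRNA host (chosen after its values were seen), in GENCODE v44 on GRCh38, are shown with 30 bases before the start and 30 from it, 5′ to 3′, on the transcribed strand. Capitals mark a run of at least 5 pyrimidines that begins with C within 5 bases of the start.
GAS5: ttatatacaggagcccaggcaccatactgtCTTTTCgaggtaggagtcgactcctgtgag
SNHG1: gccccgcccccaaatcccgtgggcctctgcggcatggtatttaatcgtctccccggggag
ZFAS1: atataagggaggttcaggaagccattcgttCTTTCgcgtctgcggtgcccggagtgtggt
The windows are chr1:173867960-173868019 (minus strand) for GAS5, chr11:62855893-62855952 (minus strand) for SNHG1 and chr20:49278612-49278671 (plus strand) for ZFAS1. GAS5 carried such a run and SNHG1 did not at this annotated start. It was held by 9 of the 28 tested snoRNA host lncRNAs (32.1%) and by 21.0% of all 18998 tested genes with such a window.

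SNHG1 was counted 3774, 3597 and 2796 times in shScramble, 1084, 1269 and 959 times with guide 2 and 8769, 8022 and 9003 times in the libraries labelled guide 1. The levels were 119 ± 5.39 CPM, 47.0 ± 3.56 CPM and 299 ± 9.67 CPM (SD, n = 3). All guide 2 libraries lay below and all libraries labelled guide 1 above shScramble. The log2 fold changes were -1.34 (SE 0.0542, adjusted p = 1.97e-17) and 1.33 (SE 0.0504, adjusted p = 6.31e-19) by edgeR's quasi-likelihood test.

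GAS5, named for its growth arrest-specific expression, was counted 12223, 13457 and 9702 times in shScramble, 5494, 6236 and 5732 times with guide 2 and 20034, 15959 and 20195 times in the libraries labelled guide 1. The levels were 414 ± 16.4 CPM, 249 ± 10.8 CPM and 650.3 ± 67.7 CPM (SD, n = 3), in the same order as those of SNHG1 and without overlap. The log2 fold changes were -0.74 (SE 0.0604, adjusted p = 4.17e-10) and 0.65 (SE 0.0596, adjusted p = 1.29e-09) by the same test. GAS5 moved less than SNHG1 in both groups. The ratio of GAS5 to SNHG1 counts was 3.24 to 3.74 in shScramble, 4.91 to 5.98 with guide 2 and 1.99 to 2.28 in the libraries labelled guide 1, with p = 0.1 for each pair of groups in a two-sided exact permutation test.

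Of the 28 tested snoRNA host lncRNAs, 2 rose and 10 fell with guide 2, with a median log2 fold change of -0.16, and without the pair 2 rose and 8 of 26 fell. Over the tested lncRNA genes 4.54% rose and 34.3% fell, with a median of -0.46. The largest fall was that of SNHG12 (-1.39), followed by SNHG1 and by EPB41L4A-AS1 (-1.28). SNHG5 (chosen after its values were seen) and ZFAS1 fell by 1.25 and 1.14 on the log2 scale. Of the 28, 9 rose and 6 fell in the libraries labelled guide 1, with SNHG12 at 1.28 and SNHG5 at 1.59, and EPB41L4A-AS1 at 0.14 and not called. In that comparison 15.2% of the tested lncRNA genes rose and 30% fell, and 21.2% and 16.5% of all tested genes. Among the 9 hosts with the pyrimidine run 6 fell and 0 rose with guide 2, and among the 19 without it 4 fell and 2 rose. In the libraries labelled guide 1, 2 fell and 4 rose among the former and 4 fell and 5 rose among the latter, and the difference between hosts with and without the run was not tested. Of 15 nonsense-mediated decay factors 0 were called with guide 2, by the same test, and 3 rose in the libraries labelled guide 1, where UPF3B, a core factor (chosen after its values were seen), was at 1.00. Over all tested genes 29.3% were called with guide 2 and 21.2% rose in the libraries labelled guide 1. The median log2 fold change of the 15 with guide 2 was 0.26, and 12 passed the adjusted p alone. SLC3A2, beside SNHG1, had log2 fold changes of -0.29 with guide 2 and 0.09 in the libraries labelled guide 1 and was not called in either. ZBTB37, a neighbour of GAS5, fell with guide 2 (-0.66) and was at -0.11 in the libraries labelled guide 1.

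PCAT1, PCA3, SCHLAP1 and PVT1 are lncRNAs studied in prostate cancer. PCAT1 and PVT1 lie on either side of MYC on chromosome 8, PCA3 is transcribed from an intron of PRUNE2 on the opposite strand and is the basis of a urine test, and SCHLAP1 is associated with aggressive disease. PCAT1 (ENSG00000253438, chromosome 8, 126847055 to 127021014) was counted 67, 54 and 44 times in shScramble, 61, 90 and 81 times with guide 2 and 22, 17 and 27 times in the libraries labelled guide 1. The levels were 1.93 ± 0.236 CPM, 3.30 ± 0.570 CPM and 0.762 ± 0.146 CPM (SD, n = 3), and the groups did not overlap. The log2 fold changes were 0.77 (SE 0.203, adjusted p = 0.00177) and -1.33 (SE 0.246, adjusted p = 2.64e-05) by edgeR's quasi-likelihood test.

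SCHLAP1 (ENSG00000281131, chromosome 2, 180692104 to 180916939) was near the limit of detection, with 3, 7 and 2 counts in shScramble, 14, 22 and 14 with guide 2 and 2, 2 and 1 in the libraries labelled guide 1. Summed over each group, it was 5.08 times as high with guide 2 as in shScramble (exact 95% interval 2.67 to 10.5, counting error only). The log2 fold change was 2.31 (SE 0.492, adjusted p = 0.000213, edgeR's quasi-likelihood test), and in the libraries labelled guide 1 it was -1.20 (SE 0.767, adjusted p = 0.167, the same test). UBE2E3, a neighbour that encodes a ubiquitin-conjugating enzyme, had log2 fold changes of -0.48 and 0.31 and was not called in either comparison.

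PCA3 (ENSG00000225937, chromosome 9, 76764436 to 76787569) was counted 13, 10 and 11 times in shScramble, 3, 17 and 3 times with guide 2 and 2, 3 and 0 times in the libraries labelled guide 1. The guide 2 libraries lay on both sides of shScramble, and the log2 fold change of -0.30 (SE 0.559, 95% interval -1.44 to 0.85, adjusted p = 0.662, edgeR's quasi-likelihood test) was not distinguishable from 0 at this depth. Its summed level in the libraries labelled guide 1 was 0.146 of that in shScramble (exact 95% interval 0.0446 to 0.375, counting error only), with a log2 fold change of -2.69 (SE 0.751, adjusted p = 0.00252, the same test). The host gene PRUNE2 was far more abundant, at 461 CPM in shScramble, 691 CPM with guide 2 and 130.0 CPM in the libraries labelled guide 1, with log2 fold changes of 0.58 (adjusted p = 3.48e-11, under the fold limit) and -1.83 (adjusted p = 4.51e-22) by the same test.

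PVT1 (ENSG00000249859, chromosome 8, 127794533 to 128101253) was counted 655, 798 and 560 times in shScramble, 315, 456 and 344 times with guide 2 and 493, 477 and 473 times in the libraries labelled guide 1. The levels were 23.6 ± 2.10 CPM, 15.8 ± 2.27 CPM and 16.7 ± 0.819 CPM (SD, n = 3). Both groups lay below shScramble without overlap and overlapped each other. The log2 fold changes of -0.57 (SE 0.0911, adjusted p = 4.84e-06) and -0.49 (SE 0.0885, adjusted p = 1.94e-05), by edgeR's quasi-likelihood test, were just under the fold limit, and PVT1 was the only one of the 10 not called between guide 2 and the libraries labelled guide 1 (-0.08, 95% interval -0.27 to 0.11, adjusted p = 0.438, the same test). MYC, its oncogene neighbour, rose with guide 2 (0.92, adjusted p = 1.67e-15, the same test) and was at 0.21 in the libraries labelled guide 1.

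Of 18 tested lncRNAs on a list of prostate cancer lncRNAs, the 3 members PCA3, PCAT1 and SCHLAP1 included, 4 rose and 5 fell with guide 2 and 2 rose and 12 fell in the libraries labelled guide 1. Without the members the counts were 2 and 5 of 15, and 2 and 10 of 15, beside lowered shares of 34.3% and 30% over the tested lncRNA genes. CBR3-AS1, an antisense transcript of CBR3, fell in both (-1.42 and -1.13), and LINC01138 fell with guide 2 (-1.27). PCAT19 rose with guide 2 (0.865) and fell in the libraries labelled guide 1 (-0.928). CTBP1-AS (chosen after its values were seen) fell in both (-0.86 and -0.70). DRAIC (chosen after its values were seen) was 0.57 and not called with guide 2 and fell by 1.36 on the log2 scale in the libraries labelled guide 1. The lower summed level of the luminal markers stands beside these falls in the libraries labelled guide 1, and its part in them was not tested.

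H19 is an imprinted transcript beside IGF2, on chromosome 11 at 1995163 to 2001470 (ENSG00000130600). It was counted 19, 21 and 10 times in shScramble, 20, 28 and 14 times with guide 2 and 12, 8 and 10 times in the libraries labelled guide 1, at 0.570 ± 0.117 CPM, 0.872 ± 0.241 CPM and 0.347 ± 0.0676 CPM (SD, n = 3). The guide 2 libraries overlapped those of shScramble. Neither log2 fold change against shScramble passed the test, 0.60 with guide 2 (95% interval -0.12 to 1.31, adjusted p = 0.137) and -0.73 in the libraries labelled guide 1 (95% interval -1.53 to 0.07, adjusted p = 0.1), whereas guide 2 against the libraries labelled guide 1 was called at 1.32 (adjusted p = 0.00255), all by edgeR's quasi-likelihood test. IGF2 was also low, between 1.40 and 2.09 CPM as group means, and not called in either comparison with shScramble.

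HOTAIR is transcribed from the HOXC cluster, between HOXC11 and HOXC12 and against their direction, and is known for its binding of Polycomb proteins. It lies on chromosome 12 at 53962308 to 53974956 (ENSG00000228630, minus strand). Its counts were 37, 32 and 22 in shScramble, 4, 4 and 3 with guide 2 and 272, 265 and 295 in the libraries labelled guide 1. The levels were 1.05 ± 0.124 CPM, 0.156 ± 0.0189 CPM and 9.64 ± 0.187 CPM (SD, n = 3), without overlap. It had the widest range of the 10, with log2 fold changes of -2.73 with guide 2 (SE 0.350, adjusted p = 1.53e-07) and 3.18 in the libraries labelled guide 1 (SE 0.160, adjusted p = 3.68e-16) by edgeR's quasi-likelihood test. Summed over each group, the libraries labelled guide 1 were 9.08 times as high as shScramble (exact 95% interval 7.31 to 11.4), and guide 2 was at 0.147 of shScramble (exact 95% interval 0.0711 to 0.276), both for counting error only.

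The HOXC genes, which encode homeodomain transcription factors, split on either side of HOTAIR. HOXC11 and HOXC10 fell with guide 2 (-1.86 and -2.02) and rose in the libraries labelled guide 1 (2.73 and 2.50). HOXC12 rose with guide 2 (0.71) and fell in the libraries labelled guide 1 (-0.71), and HOXC13 was at 0.56 and -0.48 and not called.

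**Figure D3:**
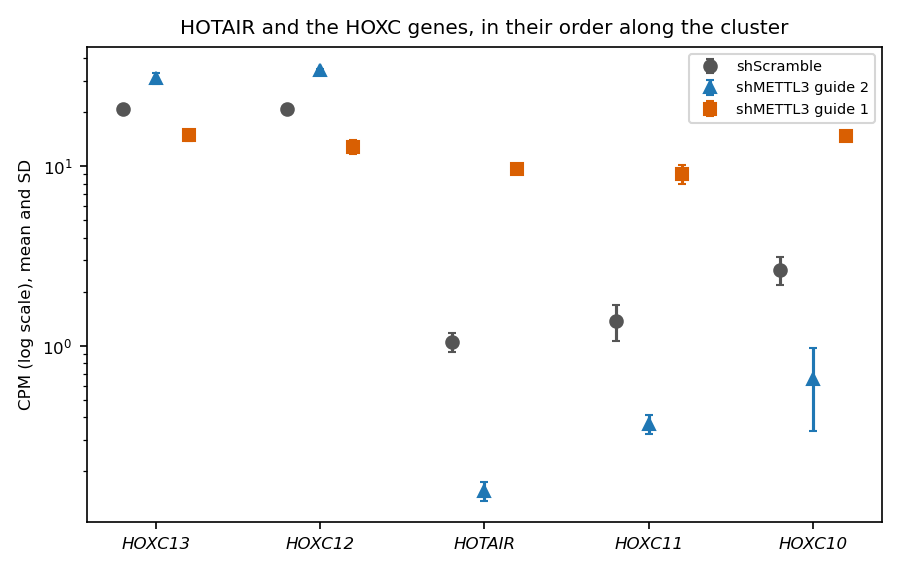
Mean and SD of CPM (vertical axis, log scale, n = 3) of HOTAIR and 4 HOXC genes in shScramble (circles), with guide 2 (triangles) and in the libraries labelled guide 1 (squares). HOTAIR, HOXC11 and HOXC10 are lowest with guide 2 and highest in the libraries labelled guide 1, and HOXC12 and HOXC13 are in the opposite order.

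Other genes with the order of HOTAIR were looked at after its values were seen. A list of 8 neurofilament and oncofetal genes (NEFL, NEFM, NEFH, INA, LIN28B, HMGA2, IGF2BP1 and IGF2BP3) was summed. HEK293T cells, in which the lentivirus was packaged, are known to express several of these genes. No library of HEK293T cells is in this series, and carry-over of such cells was not tested. The sum was 64.7 to 70.3 CPM in shScramble, 34.9 to 41.5 CPM with guide 2 and 365 to 380.4 CPM in the libraries labelled guide 1. For 6 of the 8, all but NEFH and IGF2BP3, every library labelled guide 1 lay above every shScramble library and every guide 2 library below. The list was chosen after these values were seen, so this count adds no support. The share of all tested genes with this order was not counted. Between guide 2 and the libraries labelled guide 1, 28.2% of all tested genes were called lower with guide 2. NEFM, a neurofilament subunit, was at 1.23 CPM, 0.0597 CPM and 43.6 CPM as group means. The part of these genes, and of the luminal markers, in the levels of HOTAIR, SNHG1 and GAS5 was not tested.

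The exons of the 10 lncRNAs were searched for GGACT and GGACC, spellings of the m6A consensus, on the transcribed strand. MALAT1 held 14 (1.60 per kb), NEAT1 34 (1.49 per kb), SNHG1 4 (1.06 per kb), GAS5 4 (1.10 per kb), PVT1 14 (2.55 per kb) and HOTAIR 11 (4.23 per kb). The tested lncRNA genes had a median of 1.81 per kb (quartiles 1.02 and 2.80), and 85.9% held at least 1. MALAT1, NEAT1, SNHG1 and GAS5 lay below this median, as did PCA3 (1.53 per kb) and SCHLAP1 (1.39 per kb). PCAT1 (2.59 per kb), H19 (2.83 per kb) and PVT1 lay above it, and HOTAIR at the 91.9th percentile. A match is not a methylated site, and no methylation was measured.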

How the data were processed

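RNA of LNCaP:C4-2 cells was sequenced in 9 libraries, grouped by the shRNA in the sample labels. The authors trimmed reads (Trim Galore, cutadapt), used STAR to align them to GRCh38 and featureCounts to count reads per Ensembl gene; versions are not given in the sources used here. They deposited raw counts per gene with exon coordinates. The strand setting and the handling of reads on overlapping genes are not stated, so reads of overlapping and antisense genes may be lost or shared. Symbols and biotypes came from GENCODE v44 (56558 of 60675 identifiers, 93.2%), a later annotation of the same build. There were 0 rows without a gene.

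Everything else was computed here. edgeR 4.0.16 (R 4.3.3) removed low genes by filterByExpr (minimum count 10, minimum total 15), scaled by TMM and fitted its quasi-likelihood test to all 9 libraries without covariates, with adjustment over 19278 genes. The SE of a log2 fold change is its size divided by the square root of F. The common biological coefficient of variation was 0.0512. Exact intervals (95%) and the floor of 3 counts cover counting error only. The permutation test used log ratios of counts. Sequences were read from the GRCh38 genome. Libraries of a group differed beyond sampling noise, so none was counted once for 2.

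The members and gene lists were chosen with earlier results of these data known. The text names the 10 lncRNAs, METTL3, the genes on the list of neighbours, and from each other list up to 3 genes that changed most among those called with guide 2 (mean over all libraries of 1 CPM or more); others are marked, and some genes under this rule are not reported here. On simulated counts of guide 2 against shScramble (18746 genes tested), 94 of 100 genes changed by a log2 of 1 and 100 of 100 changed by a log2 of 2 were recovered, with 5 false calls. The 200 changed genes lay above a limit on the mean count that PCA3, SCHLAP1 and H19 do not reach, so their recovery was not tested. As many were raised as lowered, whereas in the data 29.3% of tested genes were called, more of them lowered. Alternatives were DESeq2 1.42.0, its size factors, library size alone, TMM without the members and the 50 most abundant genes, other filters, only the 6 libraries compared, a replicate block, each library left out, the adjusted p alone, and glmTreat.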

Additional observations from a re-analysis of the deposited data

Results flagged for a closer look

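For 9 of the 10 lncRNAs the guide 2 libraries differed from the libraries labelled guide 1 in the direct test (edgeR's quasi-likelihood test, adjusted over 19278 genes). The log2 difference was -0.79 for MALAT1 (adjusted p = 0.00386) and -0.71 for NEAT1 (adjusted p = 0.00484), which fell against shScramble in both groups. It was -2.67 for SNHG1 (adjusted p = 3.74e-25), -1.39 for GAS5 (adjusted p = 1.14e-15), -5.90 for HOTAIR (adjusted p = 1.38e-18) and 2.10 for PCAT1 (adjusted p = 4.81e-09), which were called in opposite directions against shScramble. It was 3.51 for SCHLAP1 (adjusted p = 4.45e-06), 2.39 for PCA3 (adjusted p = 0.00905) and 1.32 for H19 (adjusted p = 0.00255), which rest on at most 28 counts in a library. SCHLAP1 and PCA3 reached the limit of the filter on low counts in 0 libraries labelled guide 1, and SCHLAP1 in those of guide 2 alone, so their differences were fixed in part by passing it and add no support to the count of 9. HOTAIR reached this limit in 0 guide 2 libraries, so its difference adds none either. METTL3 was lowered with guide 2 and not in the libraries labelled guide 1, where the summed luminal markers were lower and the summed neurofilament and oncofetal genes higher (365 to 380.4 CPM, against 34.9 to 41.5 CPM with guide 2). In these differences the hairpin and what moved with these marker genes cannot be told apart.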

How the results depend on the processing

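Over 19 alternative settings the called lncRNAs kept their direction in every comparison, and of 558 values 544 stayed on the same side of the threshold, 7 lost their call and 7 gained one. The adjusted p alone and glmTreat reuse the main estimates, so direction could not change under them. The adjusted p alone also cannot remove a call. PVT1 gained its call with guide 2 under 6 settings, among them library size alone (-0.72), only the 6 libraries (-0.59), without shScramble replicate 1 (-0.64) and without guide 2 replicate 2 (-0.69). Under glmTreat, which tests against the fold limit, the calls of PCAT1 with guide 2 (adjusted p = 0.258), of GAS5 in the libraries labelled guide 1 (0.149) and of MALAT1 and NEAT1 between guide 2 and guide 1 (0.107 and 0.199) were lost. Between guide 2 and guide 1 PCA3 was not called without guide 2 replicate 2 (1.14) or without guide 1 replicate 3 (1.81), nor NEAT1 without guide 2 replicate 3 (-0.54). Values not called changed sign for PCA3 with guide 2 (-1.55 to 0.07) and PVT1 between guide 2 and guide 1 (-0.22 to 0.02). The adjusted p alone raised the called genes to 11910, 13188 and 14386 in the 3 comparisons and glmTreat lowered those of guide 2 to 3261. Library size alone moved the median of all genes with guide 2 from -0.04 to -0.19 and the raised share of called genes from 30.2% to 17.2%. At a mean of at least 1 CPM, PCA3, SCHLAP1 and H19 were not tested, and 6 of the lncRNAs were called between guide 2 and guide 1. Deviations of same-numbered libraries correlated at -0.46 to -0.08 in the comparisons with shScramble and at 0.17, 0.03 and 0.23 between guide 2 and guide 1, not above 0.1 in every pair, so the numbers were not taken as pairs, and with a replicate block 7, 7 and 9 lncRNAs were called as without it. Ranking the levels without exon length changed the rank of 3 of the 10 in shScramble. PCA3, SCHLAP1, H19 and HOTAIR are limited by depth, since 3 counts correspond to 0.0971 to 0.137 CPM.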

Other observations

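The 2 genes whose levels followed each lncRNA most closely over the 9 libraries, by the root mean square difference of centred log2(CPM + 1) among 15418 genes at 1 CPM or more, were NADK2-AS1 (0.136) and PABPC1L (0.162) for MALAT1, and TDRD9 (0.137) and ENSG00000267053 (0.165) for NEAT1. For SNHG1 they were HERC5 (0.0924) and GRAMD1B (0.104), for GAS5 PJVK (0.0786) and SERHL2 (0.0789), and for HOTAIR DZIP1 (0.0654) and FZD10-AS1 (0.0678). The added 1 shrinks the differences of low genes. By correlation in place of distance the nearest gene was another one for 9 of the 10 lncRNAs.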
